A study of Sus scrofa with 6 samples.

Results

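Reference genes are transcripts against which other transcripts are measured in qPCR, on the assumption that their own level is steady. The 8 genes considered here were GAPDH, ACTB, B2M, HPRT1, TBP, PPIA, YWHAZ and SDHA, and a gene was taken where the pig Ensembl identifier of a row carried its symbol. Of the 8 genes, 4 had such a row among the 28266 rows of the expression table: GAPDH, ACTB, YWHAZ and SDHA. B2M, HPRT1, TBP and PPIA were not analysed here. Expression was measured by RNA-seq in cultured porcine satellite cells (PSCs), which are the stem cells of skeletal muscle and form multinucleated myotubes on differentiation. The cells came from the limb muscle of 3-day-old male Yorkshire pigs and were cultured in differentiation medium with horse serum. Group N1 (replicates 4, 5 and 6) was harvested at 24 h of differentiation. Group N2 (replicates 4, 5 and 6) is given as 48 h by the sample labels and as 36 h by the series title and the paper. The titles begin with N, the letter that the paper uses for cells with negative control (NC) siRNA, while the labels name no siRNA, so all 6 libraries are read as transfected with a control oligonucleotide and none as untreated. The cells in which H19 was knocked down were not analysed here. Nothing in the labels says that replicates came from separate pigs or cultures, so p-values measure only the spread between these samples, which may be technical.

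The 4 genes serve different processes, with GAPDH and SDHA both in energy metabolism. GAPDH is a glycolytic enzyme that oxidizes glyceraldehyde 3-phosphate, and ACTB is the cytoplasmic β-actin of the cytoskeleton and of cell movement. YWHAZ is a 14-3-3 protein that binds phosphorylated partners in signaling, and SDHA is the flavoprotein subunit of succinate dehydrogenase, which works both in the tricarboxylic acid cycle and in the respiratory chain. Myoblasts that differentiate leave the cell cycle, replace cytoplasmic actin with sarcomeric actins and build up energy metabolism, so a gene may be steady in growing cells and still change while myotubes form. A ratio between a pair of genes of the same library does not depend on how that library was scaled, whereas the level of a single gene does.

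The FPKM values (fragments scaled to the length of the gene and to the library's counted fragments) moved in steps of a single fragment, which allowed the fragments behind them to be recovered. The totals were between 16382890 and 16908165 fragments in N1 and between 18015798 and 21896353 in N2. Pearson's r across genes was between 0.972 and 0.994 for libraries of the same group, and between 0.910 and 0.962 for libraries of different groups. One protocol label names endometrium as the source of the RNA, against skeletal muscle and satellite cells in the other labels. The summed FPKM of 6 myogenic markers was between 4050 and 6442 in N1 and between 12403 and 13613 in N2. Of the 6, 4 rose on the deposited values (limma adjusted p under 0.05), where 16.5% of all tested genes did. Of 6 epithelial and endometrial markers 5 stayed below 1 FPKM in every library, 2 of them at 0 throughout, and their summed FPKM was between 0.290 and 0.676 in N1 and between 2.60 and 4.54 in N2. The remaining marker, CDH1, was between 0.107 and 0.430 FPKM in N1 and between 2.35 and 4.36 in N2. Of 3 fibroblast markers tested, DCN and LUM fell by 1.48 and 1.19 on the log2 scale and COL3A1 rose by 0.88, with a summed FPKM over 4 markers between 226.5 and 295.6 in N1 and between 394.4 and 534.0 in N2. The summed markers reached at most 1.67 FPKM for endothelial cells, 5.72 for leukocytes and 0.557 for adipocytes in any library. The part of other cells in the values below was not tested, and in bulk RNA fewer cells of a type and less RNA per cell cannot be told apart.

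GAPDH (chromosome 5, 64129678 to 64135194, Sscrofa11.1) was the most even of the 4 genes on the deposited values. Its FPKM was 2358, 2489 and 2645 in N1 replicates 4, 5 and 6 and 2650, 2772 and 2747 in N2 replicates 4, 5 and 6. Every N2 library was above every N1 library, but N1 replicate 6 and N2 replicate 4 were almost level. The mean was 2497 ± 144 (SD, n = 3) in N1 and 2723 ± 64.3 (SD, n = 3) in N2, and the values rested on 21287 to 32407 fragments per library.

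ACTB (chromosome 3, 4084275 to 4090383) had an FPKM like that of GAPDH in N1 and well below it in N2. It was at 2119, 2439 and 3441 FPKM in N1 replicates 4, 5 and 6 and at 1106, 1312 and 1557 in N2 replicates 4, 5 and 6. N1 replicate 6 stood above the other N1 libraries, and no library of N2 reached the lowest of N1. The mean went from 2666 ± 689 (SD, n = 3) to 1325 ± 225 (SD, n = 3), with at least 42785 fragments in every library. In N1 the FPKM range of ACTB enclosed that of GAPDH, so the order of these genes could not be set there. In N2 all GAPDH values were above all ACTB values in FPKM. This order rests on the gene lengths by which FPKM divides. In fragments ACTB was above GAPDH in N2, at 42785, 53395 and 52138 against 29435, 32407 and 26425 (replicates 4, 5 and 6).

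YWHAZ (chromosome 4, 35975513 to 36009909) had 266, 277 and 344 FPKM in N1 replicates 4, 5 and 6 against 159, 159 and 172 in N2 replicates 4, 5 and 6. The groups did not overlap, and N1 replicate 6 was again the highest library. Its mean was 295 ± 42.1 (SD, n = 3) in N1 and 163 ± 7.51 (SD, n = 3) in N2.

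SDHA (chromosome 16, 79838442 to 79862956) was the lowest of the 4 genes in every library. Its 3 values in N1 were 89.7, 85.5 and 78.1 FPKM, and its 3 values in N2 were 100.8, 88.3 and 86.3, in the order of replicates 4, 5 and 6. The groups overlapped, since N1 replicate 4 was above N2 replicates 5 and 6. The mean was 84.4 ± 5.88 (SD, n = 3) in N1 and 91.8 ± 7.88 (SD, n = 3) in N2. In SDHA, unlike the other 3 genes, N1 replicate 6 was the lowest library of its group.

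**Figure D1:**
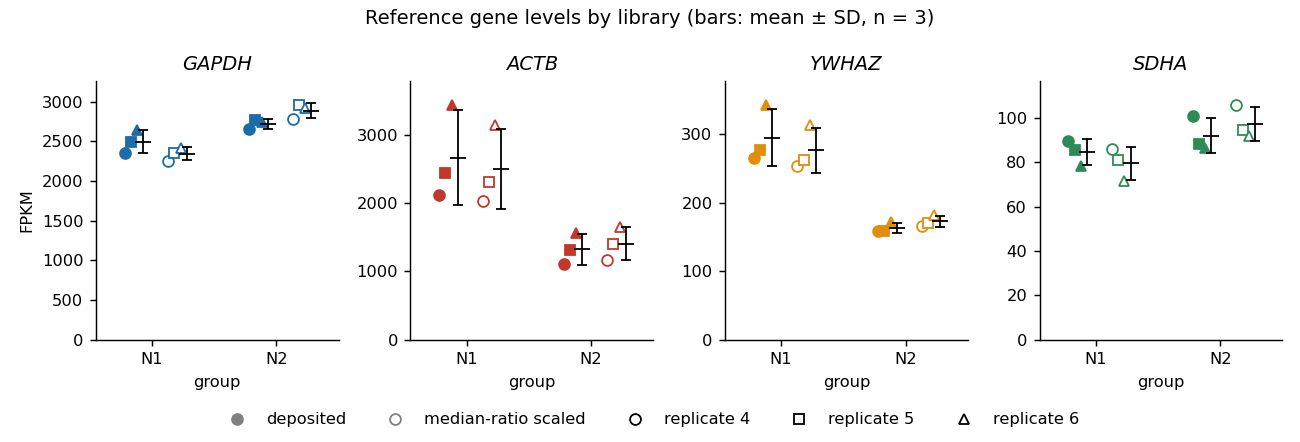
FPKM of GAPDH, ACTB, YWHAZ and SDHA in each library (vertical axes from 0, 1 panel per gene), as deposited (filled) and after median-ratio scaling (open), with the mean ± SD of each group of 3 libraries in black. ACTB and YWHAZ lie lower in all N2 libraries on both scales, and the SDHA groups overlap on the deposited scale alone.

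The counting error of these values was small, between 0.31% and 1.94% of a value, so the depth did not limit what follows. The gene length recovered from the FPKM steps was 534 bases for GAPDH, 1859 for ACTB, 1642 for YWHAZ and 2076 for SDHA, and both length and fragments would be too small if the 6 fragment counts of a gene shared a common factor. GAPDH and ACTB have near-identical copies in the genome (processed pseudogenes and, for ACTB, the other actins), and the sources used here do not state how reads shared between such genes were counted. Their levels are uncertain to that extent.

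Within a group, GAPDH and SDHA varied less than ACTB. On the deposited values the coefficient of variation (CV, the SD as a percentage of the mean) in N1 was 5.76% for GAPDH, 6.96% for SDHA, 14.2% for YWHAZ and 25.9% for ACTB. In N2 it was 2.36% for GAPDH, 4.60% for YWHAZ, 8.59% for SDHA and 17.0% for ACTB. The median CV of all tested genes was 10.9% in N1 and 8.13% in N2, so ACTB was above the typical gene in both groups and GAPDH below it in both. SDHA was below the typical gene in N1 and slightly above it in N2. After median-ratio scaling the CV in N1 was 3.57% for GAPDH, 9.18% for SDHA, 11.8% for YWHAZ and 23.4% for ACTB, beside a median of 10.8%, and in N2 it was 3.22%, 7.81%, 4.78% and 17.4% in the same order, beside a median of 8.07%, so that SDHA was then slightly below the typical gene in N2. The spread of ACTB and YWHAZ in N1 rested on replicate 6, without which their CV was 9.94% and 2.73%. Each CV comes from 3 libraries and moves readily. Without N2 replicate 4 that of GAPDH in N2 was 0.636% and that of SDHA in N2 was 1.56%, without N2 replicate 6 that of YWHAZ in N2 was 0.234%, and without N1 replicate 6 that of SDHA in N1 was 3.44%.

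Over all 6 libraries the genes separated further, because differences between the groups entered. The CV was 6.08% for GAPDH, 8.41% for SDHA, 33.7% for YWHAZ and 43.4% for ACTB on the deposited values, beside a median of 19.6% over the tested genes. Only 5.43% of the tested genes had a smaller CV than GAPDH, and 11.99% a smaller CV than SDHA. For YWHAZ and ACTB the shares were 76.4% and 85.3%. Among the 1938 tested genes with a mean of at least 50 FPKM, a floor that SDHA lies near and the other 3 genes lie well above, the shares were 10.01% for GAPDH, 20.1% for SDHA, 86.0% for YWHAZ and 91.6% for ACTB. The 2 metabolic genes were thus among the evener genes of the table and the other 2 among the more variable ones, as the deposited values stand.

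The picture for GAPDH and SDHA depended on the scaling of the libraries. Median-ratio scaling divides a library by the median, over genes, of its value relative to that gene's geometric mean in all libraries, and the factor was between 1.05 and 1.09 in N1 and between 0.935 and 0.952 in N2. All N1 values were thereby lowered and all N2 values raised. The CV over 6 libraries was then larger for GAPDH (11.8%) and SDHA (13.4%) and smaller for YWHAZ (27.0%) and ACTB (36.8%). After scaling, 27.6% of the tested genes had a smaller CV than GAPDH and 33.6% a smaller CV than SDHA. On the log2 scale the SD over the 6 scaled libraries was 0.17 for GAPDH, 0.19 for SDHA, 0.38 for YWHAZ and 0.52 for ACTB, against a median of 0.23 for the tested genes.

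The comparison of N2 with N1 asks whether a reference gene kept its level as differentiation went on. On the deposited FPKM, ACTB fell by 0.99 on the log2 scale (SE 0.21, 95% interval -1.48 to -0.50, limma adjusted p = 0.00795), to 0.503 of its N1 level. YWHAZ fell by 0.84 (SE 0.11, interval -1.10 to -0.59, limma adjusted p = 0.00166), to 0.557 of its N1 level. Neither GAPDH nor SDHA passed the threshold of 0.05. The difference was 0.13 for GAPDH (SE 0.09, interval -0.08 to 0.33, limma adjusted p = 0.253) and 0.12 for SDHA (SE 0.09, interval -0.09 to 0.32, limma adjusted p = 0.279). The intervals of both genes leave room for a level in N2 between 0.947 and 1.26 times that of N1 for GAPDH and between 0.943 and 1.25 times for SDHA, and within these bounds an even level and a change could not be told apart.

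These results stand beside a comparison in which change was common. Of 14060 genes tested, 50.9% passed the threshold on the deposited values. Those higher in N2 made up 16.5% and those lower 34.4% of the tested genes, and in 63.6% the groups did not overlap. A count of 2 of 4 reference genes called is therefore near the share of all genes, and no overlap in 3 of the 4 is as well. The median absolute change of the tested genes was 0.34 on the log2 scale. ACTB changed more than 91.2% and YWHAZ more than 87.4% of the tested genes, while 19.9% changed less than GAPDH and 18.8% less than SDHA.

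With median-ratio scaling all 4 genes passed the threshold. GAPDH rose by 0.30 (SE 0.08, interval 0.11 to 0.49, limma adjusted p = 0.0219) and SDHA by 0.29 (SE 0.09, interval 0.07 to 0.51, limma adjusted p = 0.0390), which are 1.23 and 1.22 times the N1 level. ACTB fell by 0.82 (SE 0.20, interval -1.29 to -0.35, limma adjusted p = 0.0151) and YWHAZ by 0.67 (SE 0.10, interval -0.90 to -0.44, limma adjusted p = 0.00254). In none of the 4 did the groups overlap on this scale. Of all tested genes 46.3% passed here (23.9% higher and 22.3% lower), and 60.1% did not overlap. The scaling moved the median change of all genes from -0.16 to -0.01, so relative to the typical gene GAPDH and SDHA lay higher in N2 on either scale. The change of GAPDH was then close to the median absolute change of 0.30, with 50.02% of the tested genes changing less.

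Of these calls, those of ACTB and YWHAZ on the deposited values and that of YWHAZ on the scaled values held when each library was left out in turn. The call of GAPDH after scaling was lost without N1 replicate 4, N1 replicate 5, N2 replicate 5 or N2 replicate 6, with limma adjusted p between 0.0629 and 0.0845 in those fits and between 0.00908 and 0.159 over all alternatives. The call of SDHA after scaling was lost without any library other than N1 replicate 4, with limma adjusted p between 0.0539 and 0.110 in those fits and between 0.0188 and 0.110 over all alternatives. ACTB after scaling narrowly lost its call without N2 replicate 4 (limma adjusted p = 0.0501) or N2 replicate 5 (limma adjusted p = 0.0514), with a range of 0.00334 to 0.0514 over the alternatives. Quantile normalization, which gives every library the same distribution of values, turned the direction of GAPDH, to -0.13 (limma adjusted p = 0.228, from 0.0854 to 0.532 over the alternatives).

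**Figure D2:**
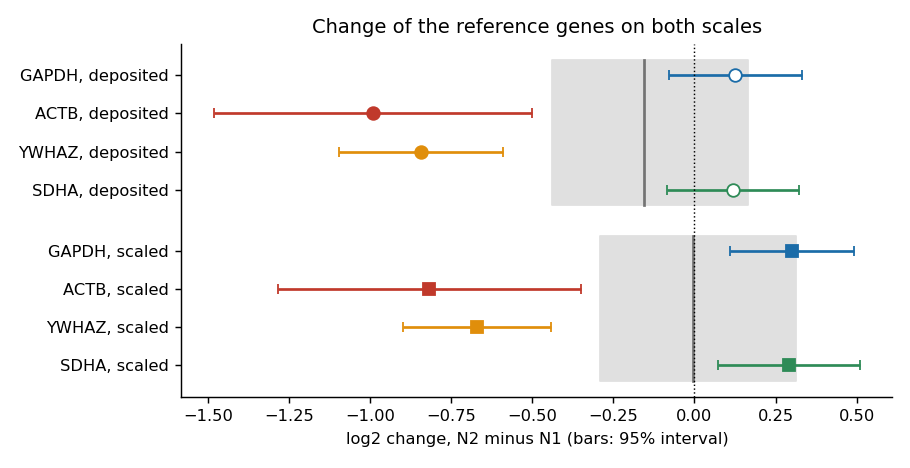
Change of each reference gene between N1 and N2 (horizontal axis, log2(FPKM + 1), N2 minus N1) with its 95% interval, on the deposited values (circles) and after median-ratio scaling (squares). Filled symbols passed the limma threshold, open symbols did not, and the grey band and line give the quartiles and the median of all 14060 genes tested. The deposited GAPDH and SDHA intervals include 0, and those of ACTB and YWHAZ lie below the band's median on both scales.

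Ratios between the reference genes are free of the scaling. By the shift of these ratios between the groups, GAPDH paired with SDHA and ACTB with YWHAZ. The log2 ratio of GAPDH to SDHA was 4.72, 4.86 and 5.08 in N1 and 4.72, 4.97 and 4.99 in N2 (replicates 4, 5 and 6), so the groups overlapped and their means differed by 0.01. The SD of this ratio was 0.18 in N1 and 0.15 in N2. ACTB and YWHAZ kept a similar ratio too, at 2.99, 3.14 and 3.32 in N1 and 2.80, 3.04 and 3.18 in N2. The difference was -0.14 beside an SD of 0.17 in N1 and 0.19 in N2. These pairs hold for the shift between the groups only. Inside the groups the ratio of GAPDH to YWHAZ was tighter than that of GAPDH to SDHA (SD 0.12 in N1 and 0.06 in N2).

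Across the pairs the ratios moved by about 1 on the log2 scale. The log2 ratio of GAPDH to ACTB was 0.15, 0.03 and -0.38 in N1 and 1.26, 1.08 and 0.82 in N2, a mean difference of 1.12, or 2.17 times. The ratio of GAPDH to YWHAZ differed by 0.97, ACTB to SDHA by -1.11 and YWHAZ to SDHA by -0.97. In these 4 ratios no library of one group lay within the range of the other group, whereas the 2 ratios within pairs overlapped. An exact permutation test of 3 libraries against 3 cannot give a p below 0.10, so the ratios are described without a test. N1 replicate 6 was the N1 library farthest from N2 in each of these 4 ratios. Without it the differences were smaller, at 0.96 for GAPDH to ACTB, 0.90 for GAPDH to YWHAZ, -0.86 for ACTB to SDHA and -0.80 for YWHAZ to SDHA, while GAPDH to SDHA differed by 0.10 and ACTB to YWHAZ by -0.06.

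**Figure D3:**
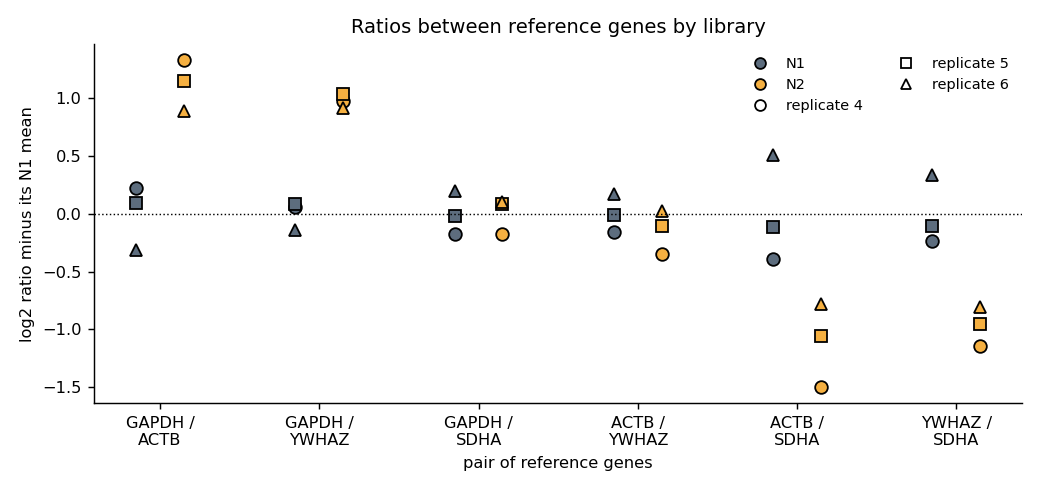
Log2 ratio of each pair of reference genes in each library, after subtraction of the N1 mean of that pair (vertical axis), with N1 in grey, N2 in orange and the replicate number as symbol. The N2 libraries overlap N1 for GAPDH to SDHA and ACTB to YWHAZ, and stand about 1 log2 unit away for the other 4 ratios.

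The stability measure M, the mean SD of a gene's log2 ratio to each of the other reference genes, summarises these ratios. It is low for genes that move with the others. Over the 6 libraries M was 0.43 for YWHAZ, 0.45 for GAPDH, 0.48 for SDHA and 0.51 for ACTB. These values were close, and each gene had 1 partner whose ratio overlapped between the groups and 2 whose ratio did not. M was far lower inside the groups, at 0.20 for YWHAZ and GAPDH, 0.30 for ACTB and 0.31 for SDHA in N1, and at 0.14, 0.15, 0.26 and 0.23 for YWHAZ, GAPDH, ACTB and SDHA in N2. M was also taken over these 4 genes and 30 other qPCR reference genes together. GAPDH then had 0.31 and ranked 22 of 34 from the lowest M, and SDHA had 0.33 and rank 23. YWHAZ had 0.38 and rank 26, and ACTB had 0.51 and rank 33. NONO, an RNA-binding protein of paraspeckles, had the lowest M at 0.22, and LDHA the highest at 0.66. A low M does not mean a fixed level. NONO itself fell by 0.37 on the deposited values (limma adjusted p = 0.00271) and by 0.20 after scaling (limma adjusted p = 0.0254). YWHAZ was thus first of 4 and behind GAPDH and SDHA among 34.

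The genes around each reference gene show whether its behaviour was shared by its family or pathway. For ACTB, the other 5 actins were tested. ACTG1, the second cytoplasmic actin, fell with it, from 3640 to 2178 mean FPKM (log2 change -0.72, limma adjusted p = 0.0162), and so did ACTG2, a smooth muscle actin near the lowest level tested (2.33 to 1.08 FPKM, change -0.67). ACTA1, the α-actin of skeletal muscle, rose by 2.37 from 1248 to 5572 FPKM (limma adjusted p = 0.00711). ACTC1, the α-actin of heart and of developing muscle, rose by 0.44 from 8647 to 11685 FPKM (limma adjusted p = 0.0408), and ACTA2, the vascular smooth muscle actin, was at 961 and 989 FPKM (change 0.05, limma adjusted p = 0.737). The counts of 2 higher and 2 lower actins were the same after scaling and without N1 replicate 6, apart from ACTA2, which also passed as higher when both were applied. Of all tested genes 16.5% were higher and 34.4% lower on the deposited values, and 23.9% and 22.3% after scaling.

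Within the summed FPKM of ACTB, ACTG1, ACTA1, ACTA2 and ACTC1, the share of ACTB was 12.2%, 14.1% and 20.4% in N1 and 5.15%, 5.79% and 7.39% in N2 (replicates 4, 5 and 6). That of ACTA1 was 10.7%, 8.22% and 2.77% in N1 and 27.4%, 25.7% and 23.8% in N2. N1 replicate 6 thus had the largest share of ACTB and the smallest of ACTA1. The sum itself was between 16831 and 17330 FPKM in N1 and between 21077 and 22673 in N2. The actin genes are near-identical in their coding parts, and these shares would shift if reads had been assigned to the wrong member.

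Among the other 14-3-3 genes, 3 were tested and 2 fell, where 34.4% of all tested genes did (22.3% after scaling). They fell by less than YWHAZ in their estimates, a difference that was not tested. YWHAQ fell by 0.68 (limma adjusted p = 0.00308) and YWHAB by 0.45 (limma adjusted p = 0.004995), while YWHAH changed by -0.10 (limma adjusted p = 0.328). YWHAH also passed as lower when N1 replicate 6 was left out on the deposited scale, and the count was 2 lower after scaling with or without that library.

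The partners of SDHA in succinate dehydrogenase did not move as a block. SDHB, the iron-sulfur subunit, changed by 0.07 (limma adjusted p = 0.514) and SDHC, a membrane anchor, by -0.12 (limma adjusted p = 0.145). SDHD, the other membrane anchor, fell by 0.31 (limma adjusted p = 0.0130) and SDHAF2, the factor that helps SDHA take up its flavin, rose by 0.24 (limma adjusted p = 0.0405). After scaling SDHAF2 was the 1 member of the 4 that passed, and without N1 replicate 6 it lost its call on the deposited scale, leaving 0 higher and 1 lower. Among all tested genes the shares were 16.5% higher and 34.4% lower on the deposited values, and 23.9% and 22.3% after scaling.

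GAPDH belongs to a pathway whose genes went both ways. Of 14 glycolytic genes tested apart from GAPDH, 6 rose, 3 fell and 5 did not pass, beside 16.5% and 34.4% of all tested genes, with a median change of 0.27 against -0.16 for all genes. The muscle isoform PGAM2 rose by 1.80 (325 to 1064 FPKM, limma adjusted p = 0.00447), and the largest fall was that of PGAM1, its widely expressed counterpart (change -0.62, 701 to 453 FPKM, limma adjusted p = 0.0229). ENO3, the muscle enolase, rose by 0.89 and the general enolase ENO1 fell by 0.24, although ENO1 was also the steadiest of the 14 over the scaled libraries (SD 0.06). PFKL, the liver type of phosphofructokinase, rose by 0.90, LDHA by 0.82, GPI by 0.55 and PGK1 by 0.39, whereas PFKM, the muscle type of phosphofructokinase, fell by 0.45 (23.5 to 16.9 FPKM, limma adjusted p = 0.0204). After scaling 7 rose and 0 fell by limma (2 lower at an unadjusted p under 0.05, 0 by limma voom), where 23.9% and 22.3% of all tested genes did. PGAM1 and PFKM then had changes of -0.45 and -0.28 that did not pass. Without N1 replicate 6 the counts were 8 higher and 3 lower on the deposited scale and 9 higher and 0 lower after scaling. Over all 13914 genes tested without that library they were 2452 and 4816 on the deposited scale, and 3463 and 3179 after scaling. GAPDH, at 0.13 on the deposited values, lay below the median of its pathway.

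For the 4 reference genes without a row, only their partners could be described, and nothing follows from them about the genes themselves. B2M is the light chain of MHC class I molecules. Of 7 tested genes of class I assembly and transport 5 fell and 0 rose by limma (0 higher at an unadjusted p under 0.05 and 0 by limma voom), namely TAPBP by 0.64, PDIA3 by 0.50, CANX by 0.39, CALR by 0.29 and FCGRT by 0.26 on the log2 scale, where 34.4% of all tested genes fell and 16.5% rose, and ERAP1 (-0.61) and TAP2 (-0.31) did not pass. After scaling 3 of the 7 passed as lower, beside 22.3% of all tested genes. HPRT1 recovers purine bases, and of 13 tested genes of purine salvage and synthesis 7 fell and 0 rose by limma (1 higher at an unadjusted p under 0.05, 0 by limma voom), beside the same 34.4% and 16.5% of all tested genes. PAICS had the largest fall, of 1.21 (limma adjusted p = 0.000752), and IMPDH2 was the steadiest with an SD of 0.03 over the scaled libraries. After scaling 5 of these 13 were lower and 3 higher, where 22.3% and 23.9% of all tested genes were.

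TBP is the TATA-binding protein of the transcription machinery. Of 14 tested TFIID subunits and related factors, 7 fell and 0 rose on the deposited values by limma (0 higher at an unadjusted p under 0.05 and 0 by limma voom), TAF1B most (change -0.83, limma adjusted p = 0.00448), and 7 were lower and 3 higher after scaling. Of all tested genes 34.4% were lower and 16.5% higher on the deposited values and 22.3% and 23.9% after scaling. The steadiest of them over the scaled libraries was TAF11, which changed by -0.03 on that scale. PPIA is a cyclophilin, a peptidyl-prolyl isomerase. The 6 other cyclophilins tested had deposited changes of -0.16 for PPIF, -0.13 for PPIL2, -0.10 for PPIH, -0.09 for PPIL4, -0.01 for PPID and 0.25 for PPIL3. By limma 0 of the 6 passed (1 higher and 0 lower at an unadjusted p under 0.05, 0 by limma voom), and PPIL3 passed as higher after scaling (change 0.42, limma adjusted p = 0.0188).

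A further 46 genes that are used as qPCR references were listed, of which 30 were tested. On the deposited values 3 rose, 17 fell and 10 did not pass, where 16.5% and 34.4% of all tested genes rose and fell, and the median change was -0.31. After scaling 5 rose, 12 fell and 13 did not pass, with a median of -0.14, where 23.9% and 22.3% of all tested genes rose and fell. Without N1 replicate 6 there were 4 higher and 19 lower on the deposited scale and 5 higher and 13 lower after scaling. Of all 13914 genes tested without it, 2452 were higher and 4816 lower on the deposited scale, and 3463 and 3179 after scaling. The 3 rises were those of LDHA (change 0.82, limma adjusted p = 0.00687), GAK, a kinase of clathrin uncoating (0.46, limma adjusted p = 0.0166), and PGK1 (0.39, limma adjusted p = 0.0165). The largest falls were those of GUSB, a lysosomal glucuronidase (-0.96, limma adjusted p = 0.00194), the ribosomal protein gene RPS23 (-0.83, limma adjusted p = 0.00108) and the translation factor EIF4A2 (-0.66, limma adjusted p = 0.00107). ACTB fell slightly more than GUSB, the largest fall in this list.

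Among the steadiest genes of the list over the 6 scaled libraries were RPN1, a subunit of the oligosaccharyltransferase of the endoplasmic reticulum (SD 0.03), CASC3, a part of the exon junction complex (0.08), and the mitochondrial ribosomal protein gene MRPL19 (0.10). RPN1 had a mean of 89.5 FPKM in N1 and 78.8 in N2, near that of SDHA. Its change was -0.01 after scaling (limma adjusted p = 0.894) and -0.18 on the deposited values, where it passed the threshold (limma adjusted p = 0.0269). Evenness after scaling partly restates the scaling, which centres each library on its typical gene.

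**Figure D4:**
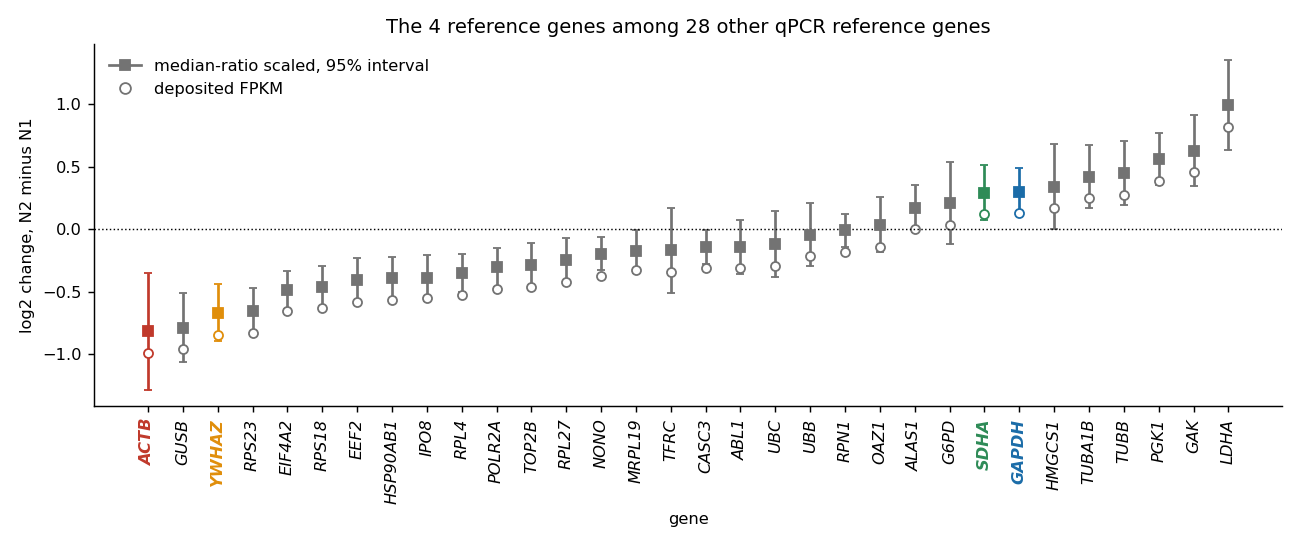
Log2 change between N1 and N2 (vertical axis) of the 4 reference genes, in colour, and of 28 other genes used as qPCR references, in grey, ordered by the change after median-ratio scaling (squares, with 95% intervals), with the deposited change as open circles. ACTB and YWHAZ lie at the low end beside GUSB, and GAPDH and SDHA in the upper part below LDHA.

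A second list held genes that have been proposed as stable from sequencing of human tissues, of which 10 were tested. On the deposited values 2 rose and 4 fell, shares near the 16.5% and 34.4% of all tested genes, and after scaling 3 rose and 4 fell, beside 23.9% and 22.3%. GPI (0.55) and CSNK2B, a casein kinase subunit (0.23), rose, and VCP had a change of 0.33 that did not pass (limma adjusted p = 0.1402). TARDBP, an RNA-binding protein of splicing, fell by 1.04 (limma adjusted p = 0.000692), EMC7 by 0.49 and VPS29 by 0.41. RAB7A, a GTPase of late endosomes, had the smallest SD of the list at 0.05, followed by HNRNPUL2, VPS29, REEP5 and CHMP2A between 0.10 and 0.20. Without N1 replicate 6 the counts were 2 higher and 5 lower, and 5 higher and 3 lower after scaling. Beside them stand 2452 and 4816 of all 13914 genes tested without that library, and 3463 and 3179 after scaling.

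Among 4527 genes with a symbol and a mean of at least 10 FPKM, those whose pattern was most like that of each reference gene were found by the SD of their log2 ratio over the 6 libraries. For GAPDH these were TRAPPC8 (SD 0.02) and BLOC1S1 (0.03), and for SDHA they were ATP5F1A, a subunit of ATP synthase (0.02), and KLC1 (0.03). For ACTB they were DCBLD2 (0.04) and DENND2B (0.06), and for YWHAZ they were DZIP1 (0.04) and RAB8B (0.04). These ratios were tighter than any ratio between the reference genes themselves, of which GAPDH to SDHA had the smallest SD at 0.15. With so many genes searched over 6 libraries, close matches are to be found for most patterns.

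The choice of reference gene was carried through to 5 genes of differentiation and division, as qPCR would do it. MYOD1, the myogenic transcription factor, had a change of -0.42 relative to GAPDH and -0.41 relative to SDHA, but 0.70 relative to ACTB and 0.56 relative to YWHAZ. Its own change in the deposited FPKM was -0.29 and did not pass (limma adjusted p = 0.133). The groups did not overlap relative to GAPDH, where all N2 libraries were lower. They did not overlap relative to ACTB and YWHAZ either, where all N2 libraries were higher, so the direction for MYOD1 turned with the divisor. On the undivided deposited values 63.6% of all tested genes did not overlap, and the share for divided values was not computed. With every gene divided by ACTB or YWHAZ, 96.4% and 94.5% of the genes past the limma threshold were higher in N2. Relative to the geometric mean of the 4 genes it was 0.11, and the groups overlapped. This value was 0.02 without N1 replicate 4 and 0.19 without N1 replicate 6.

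The other 4 target genes kept their direction under every divisor, with sizes that differed by about 1 on the log2 scale. MYMK, the myomaker needed for fusion, was higher in N2 by 1.29 relative to GAPDH, 1.29 relative to SDHA, 2.26 relative to YWHAZ and 2.41 relative to ACTB. DES, the intermediate filament of muscle, was higher by 0.79, 0.80, 1.76 and 1.91 relative to the same genes. CCNB1, a mitotic cyclin, had changes of -3.25 relative to GAPDH, -3.24 relative to SDHA, -2.28 relative to YWHAZ and -2.13 relative to ACTB, and TOP2A, a topoisomerase of dividing cells, had changes of -3.04, -3.03, -2.07 and -1.92. As a fold, DES was 1.73 times its N1 level relative to GAPDH and 3.75 times relative to ACTB. In each of these 4 targets, under each of the 4 divisors, the groups did not overlap. On the undivided deposited values this held for 63.6% of all tested genes, which is not the share for divided values. In deposited FPKM, CCNB1 and TOP2A were low in N2, with mean log2 values of 0.98 and 1.44, and their counting error was not computed. The sizes were imprecise for MYMK, with an SE from 0.48 relative to SDHA to 0.75 relative to ACTB. Relative to the geometric mean of the 4 genes MYMK changed by 1.81. This value was 1.22 without N1 replicate 6 and 2.22 without N1 replicate 4.

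**Figure D5:**
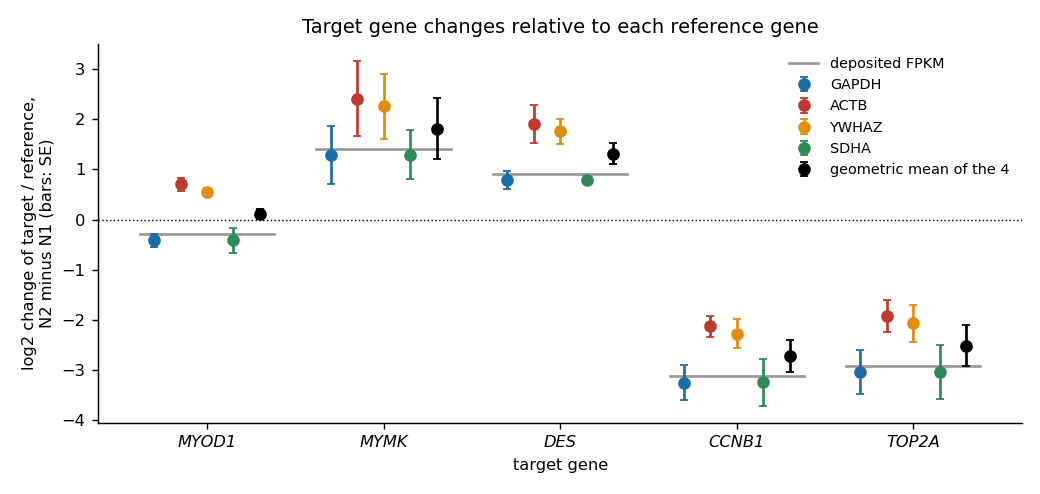
Log2 change between N1 and N2 of 5 target genes divided by each reference gene or by the geometric mean of the 4 (points with SE, n = 3 libraries per group), with the change in deposited FPKM as a grey line. MYOD1 lies below 0 with GAPDH or SDHA as divisor and above 0 with ACTB or YWHAZ.

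A reference gene can also set the scale of the whole table. Such a divisor moves every gene by the opposite of its own change, so the shares below restate the changes of the 4 genes for all genes at once. With each library divided by its GAPDH level, 7802 of 14060 genes passed the limma threshold and 20.6% of them were higher in N2, and with SDHA 6467 genes passed and 22.8% were higher. With ACTB as the divisor 9151 genes passed and 96.4% of them were higher, and with YWHAZ 10283 genes passed and 94.5% were higher. The geometric mean of the 4 genes gave 6442 genes with 75.1% higher. For comparison, 32.4% of the calls were higher on the deposited values and 51.8% after median-ratio scaling. The median change of all genes was -0.26 with GAPDH or SDHA as the divisor, 0.70 with ACTB, 0.58 with YWHAZ and 0.19 with the geometric mean.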

How the data were processed

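RNA-seq of 6 PSC libraries was analysed (groups N1 and N2, 3 each, grouped by title and label). The authors deposited FPKM values, 1 column per library and none pooled, with 0 columns left unused. The paper names HISAT2, StringTie and HTSeq, whereas the submitters' processing notes name TopHat2, Cufflinks and HTSeq, both with Sscrofa11.1. Strandedness and the treatment of shared reads are not given in the sources used here. Whole fragments were recovered from the FPKM steps for each of 19543 genes that exceeded 0 in 3 or more libraries (100% within 0.005 fragments).

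Genes with a mean of at least 1 FPKM were compared on log2(FPKM + 1) by limma 3.58.1, run in R 4.3.3 (eBayes with trend, two-sided, Benjamini-Hochberg, threshold 0.05), on the deposited values and after median-ratio scaling. Changes on this scale understate those of low genes. CV, ratios, M and target ratios used FPKM without a pseudocount. On simulated data with known changes, the fit recovered their size, and its share of false calls was close to the threshold on average. The simulation changed few genes, all upward by the same size, with independent noise and no scaling differences between libraries. It cannot give the error rate of the calls here, where change was common and some calls depended on the scaling. Symbols were paired with 11804 of 25322 Ensembl identifiers, and coordinates are those of RefSeq matched by symbol. The members and gene lists were chosen with earlier results of these data known. Named genes were every reference gene, all members of lists with under 8 tested, the largest changes and smallest SD of longer lists (3 in each direction and 5 for other reference genes), the 2 nearest patterns per reference gene, the 5 steadiest genes and the targets; further glycolytic genes were named after their values were seen. CKM was not analysed here, and a few genes named by this rule are left out of the text and plots. Alternatives were pseudocounts of 0.1 and 0.01, no filter or at least 5 FPKM, no trend, the replicate number as a block, each library left out, limma voom on recovered fragments and quantile normalization. Scaling by reference genes, M with other reference genes and list counts without N1 replicate 6 were added after the data were seen. The labels do not say whether same-numbered libraries are paired. The correlation of their deviations over all tested genes was 0.15, -0.02 and 0.18 for replicates 4, 5 and 6, which cannot settle it.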

Additional observations from a re-analysis of the deposited data

How the results depend on the processing

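On the deposited values 2 reference genes passed with each pseudocount, filter, trend setting and left-out library, with voom and with quantile normalization. After median-ratio scaling 4 passed, but 2 without a filter on low values and from 1 to 3 when 1 library was left out, the single gene being YWHAZ without N2 replicate 5. Over all genes 7156 calls were made on the deposited values and 6503 after scaling, and when 1 library was left out the totals were 4881 to 7268 and 4211 to 6642, lowest without N2 replicate 5 in both. With the replicate number as a block, 7034 and 6339 genes passed and 2 and 4 reference genes, so the block changed no call of a reference gene. On the deposited values it lowered the SE of ACTB from 0.21 to 0.09, of YWHAZ from 0.11 to 0.08 and of SDHA from 0.09 to 0.06. That of GAPDH was 0.09 in both fits. Whether the numbers pair the libraries is not known. Voom on recovered fragments called 7243 and 6610 genes. GAPDH changed sign under quantile normalization (-0.13), and MYOD1 changed sign relative to GAPDH (-0.42) and SDHA (-0.41) against the geometric mean of the 4 genes (0.11), which follows from the divisors' own changes. SDHA after scaling also lost its call without a mean-variance trend (limma adjusted p = 0.0531) and without a filter (0.0528), and GAPDH without a filter (0.159). The cause of these losses was not tested. With 3 libraries per group an SD or CV is imprecise, and depth was not the limit for the reference genes.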

Other observations

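Among tested genes with a symbol and a mean of at least 10 FPKM, the 5 with the smallest SD of log2(scaled FPKM + 1) over the 6 libraries were RNPS1, an RNA-binding protein of the exon junction complex (SD 0.01), DCTN4, a dynactin subunit (0.02), EP300, a histone acetyltransferase (0.02), MRPS10 of the mitochondrial ribosome (0.02) and CCAR1, a coactivator (0.02). Their mean FPKM in N1 was 94.3, 43.3, 25.9, 38.02 and 49.4. They were chosen for being even after scaling, and on the deposited values their changes were -0.18, -0.18, -0.19, -0.19 and -0.15, near the median of all genes. GAPDH and SDHA had a larger SD on the scaled values, 0.17 and 0.19, and a smaller deposited change in size, 0.13 and 0.12.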
